A study of Drosophila melanogaster and Drosophila simulans and Drosophila yakuba with 8 samples.

Results

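The comparison set testes in which the gene Zeus was knocked down against wildtype testes of Drosophila melanogaster, gene by gene. It used 4 of the 8 libraries of the study, 2 Zeus knockdown and 2 wildtype. A gene entered when its mean level over these 4 libraries was at least 1 RPKM (reads per kilobase of gene, scaled to the mapped reads of the library), which kept 10040 of the 15178 listed genes. The knockdown flies carried nosGal4>>UAS-Zeus-RNAi, an RNA interference construct driven by nanos-Gal4, a driver active in germline cells. The wildtype flies carried neither element according to the labels, and every library was labelled with the strain Oregon-R, adults aged 1 to 7 days and dissected testis. A pair of Caf40 knockdown libraries, nosGal4>>UAS-Caf40-RNAi in the same strain and tissue, shared the estimate of the spread and is given beside single genes. A driver-only control was not analysed here, so the genetic background of the construct and the knockdown cannot be told apart. The labels do not say that the libraries of a group came from separate flies, so the p-values measure the spread between these libraries, which may be technical.

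Zeus is the retrocopy Rcd-1r, a copy of Caf40 (Rcd-1) that arose through an RNA intermediate. Caf40 is a subunit of the CCR4-NOT complex, which deadenylates messenger RNAs and takes part in transcription and messenger RNA decay. In the fly testis, germline stem cells at the tip give rise to spermatogonia, then to spermatocytes, which express a large testis-specific programme, and then to spermatids, which elongate into sperm inside somatic cyst cells. In such bulk tissue, fewer cells of a type and less RNA per cell cannot be told apart.

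The targeted gene was low where the label said it should be. Rcd-1r stood at 4.05 and 4.04 RPKM in the Zeus knockdown libraries, against 22.2 and 26.4 RPKM in wildtype and 135 and 114 RPKM with Caf40 knocked down. The log2 fold change of the Zeus knockdown over wildtype was -2.44 ± 0.14 (SE, n = 2 against 2; adjusted p = 4.94e-09, quasi-likelihood test of edgeR, adjusted over all tested genes by Benjamini and Hochberg's method, as throughout). CG13102, which overlaps Rcd-1r in the annotation and so can share its reads, had the same pattern, at 2.66 and 2.64 RPKM against 14.4 and 17.1 RPKM. The parent gene Rcd-1 read 79.3 and 77.9 RPKM in the Zeus knockdown and 98.2 and 95.1 RPKM in wildtype. Its log2 fold change of -0.15 ± 0.09 did not pass the threshold (adjusted p = 0.19), but it did without either Caf40 library (adjusted p = 0.0291 without replicate 1 and 0.0209 without replicate 2).

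Libraries held 12662615 to 24429722 reads on genes, and replicates correlated at 0.996 in both groups (Pearson's r of log2 RPKM across genes, which are not independent replicates). Spermatid and sperm genes were abundant in all 4 libraries, with a summed level of 39463 and 39331 RPKM for 34 genes where Zeus was knocked down and 33813 and 34110 RPKM in wildtype. Of 17 ovarian follicle cell and chorion genes, 7 had no read in any of the 4 libraries and 4 passed 1 RPKM, led by Cp15 at 15.8 to 24.9 RPKM. The summed level of those 17 was 21.1 to 37.8 RPKM. The most abundant gene, CG18628, fell from 16858 and 20985 RPKM in wildtype to 9885 and 9142 RPKM in the Zeus knockdown (log2 fold change -0.84, adjusted p = 0.0003). That gene was picked after its values were seen.

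Most genes moved little and a small group moved much. The absolute log2 fold change had a median of 0.26 among the tested genes. At an adjusted p below 0.05, 1756 genes rose (17.5% of those tested) and 2057 fell (20.5%), and the words rose and fell are used below for this call. Of these, 277 genes rose at least 2-fold (2.76%) and 318 fell at least 2-fold (3.17%), together 5.93%. At least 4-fold rises and falls numbered 86 and 97, and at least 16-fold ones 26 and 38. The libraries of the groups did not overlap in RPKM for 80.2% of all tested genes, so a gap between the groups is the usual case and is given below only as a description. The split of directions depended on scaling. Rises made up 46.6% of the changes of at least 2-fold with TMM normalization, 30.5% with library totals alone and 56.7% with libraries set to the same median RPKM. On deposited RPKM with limma, they made up 36.8% with a pseudocount of 1 and 32.5% with a pseudocount of 0.1. Library totals moved the median log2 fold change of all genes by -0.16 and equal medians by 0.10, so changes below are relative to TMM scaling.

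**Figure D1:**
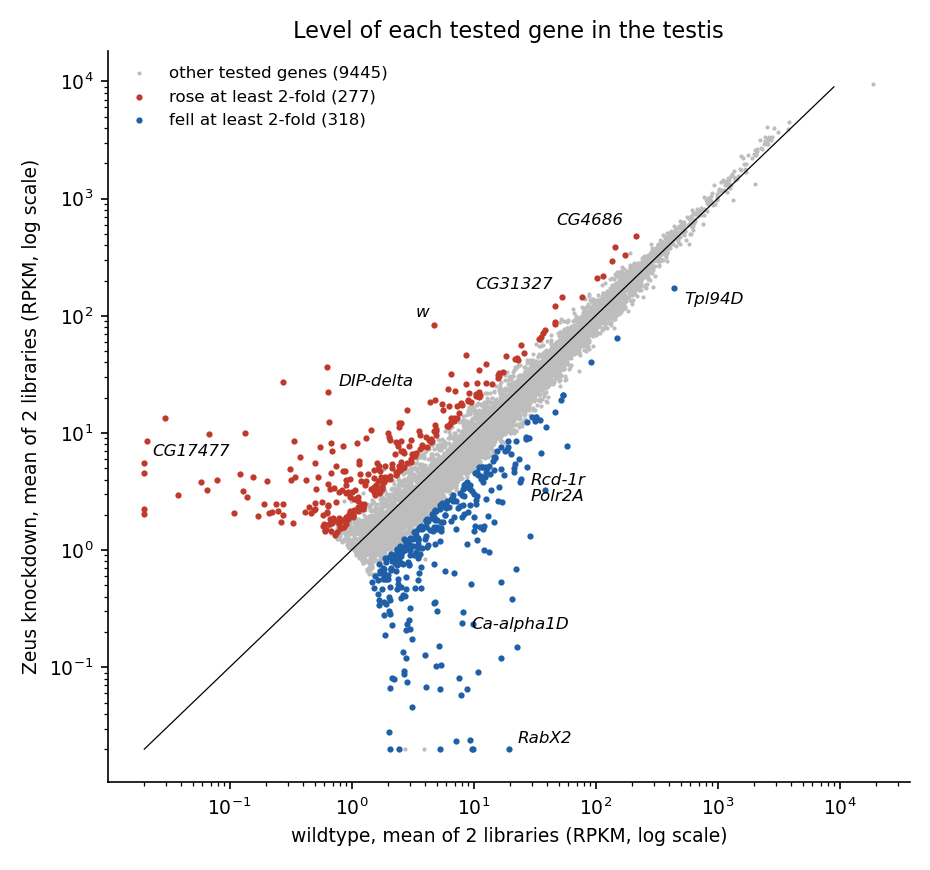
Mean RPKM of each tested gene in the 2 wildtype libraries (horizontal, log scale) and the 2 Zeus knockdown libraries (vertical, log scale), with means below 0.02 RPKM drawn at 0.02 and the line of equal levels. Genes that rose at least 2-fold (277, red) lie mostly at low levels, and CG4686 and Tpl94D are among the few changed genes above 200 RPKM in either group.

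Small changes followed the level of the gene. Among 155 genes with a mean of at least 500 RPKM over the 4 libraries, 52.9% rose and 1.94% fell, and no gene changed at least 2-fold. Among 1660 genes at 5 to 10 RPKM, 9.7% rose and 29.9% fell. The median log2 fold change went from -0.18 in that band to 0.31 in the most abundant one, and it increased in order through the bands between them. Changes of at least 2-fold had the opposite distribution, with 7.86% rising and 10.2% falling among 1043 genes at 1 to 2 RPKM. Counting error is largest in that lowest band. With library totals as the scaling, the 5 to 10 RPKM band stood at -0.34 and the most abundant band at 0.15.

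**Figure D2:**
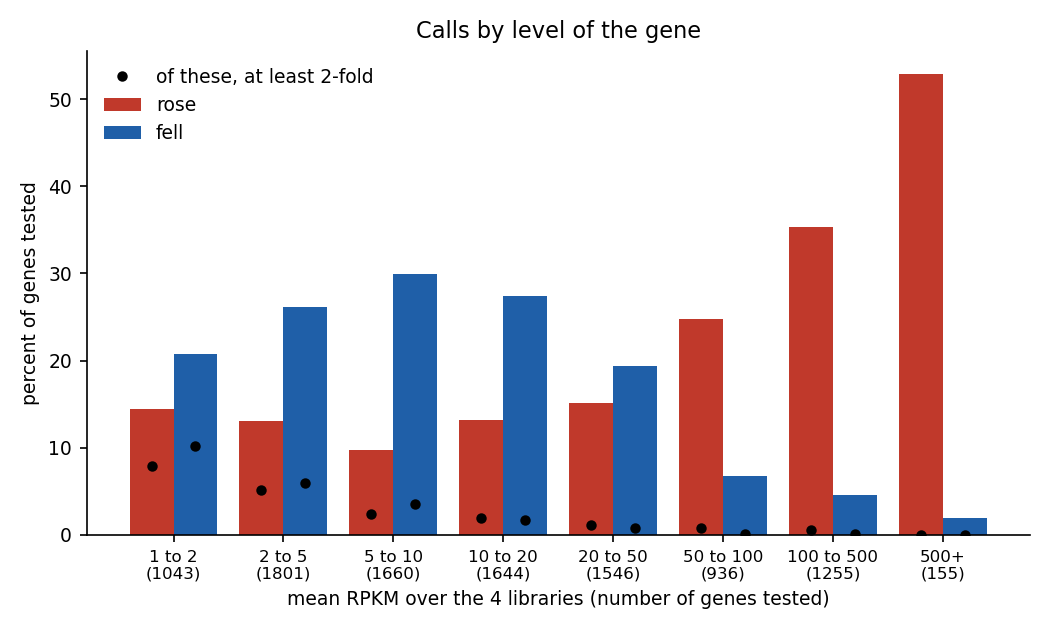
Percent of tested genes that rose (red bars) or fell (blue bars) in bands of mean RPKM over the 4 libraries, with the number of genes in each band in brackets. Black points give the percent that changed at least 2-fold. Calls of a rise reach 52.9% in the top band while changes of at least 2-fold shrink to 0.

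Among the falls, the gene for the largest subunit of RNA polymerase II stood out by its Caf40 values. Polr2A was at 3.61 and 4.04 RPKM in the Zeus knockdown and at 24.2 and 24.1 RPKM in wildtype, a log2 fold change of -2.50 ± 0.12 (adjusted p = 6.73e-10). The Caf40 knockdown libraries read 25.7 and 20 RPKM, like wildtype, and the difference between both knockdowns was -2.23 on the log2 scale (adjusted p = 1.63e-10). The gene therefore had low values in both Zeus knockdown libraries and in none of the other 4. The 9 other tested genes named Polr2 were counted after these values were seen. They had log2 fold changes between -0.49 and 0.35, 1 of them rose and 2 fell. Polr2C and Polr2E, the ones that fell, both stood at -0.49, and the call on Polr2C was lost when any of the 4 compared libraries was left out. Within the wider list of Mediator, TAF and polymerase II genes, 5 of 58 rose and 11 fell (8.62% and 19.0%, against 17.5% and 20.5% of all tested genes), with a median log2 fold change of -0.13 against -0.04 over all genes. MED17, a core Mediator subunit, was the 1 member that rose at least 2-fold, at 12.3 and 14.6 RPKM against 6.55 and 7.24 RPKM in wildtype (log2 fold change 1.13, adjusted p = 2e-06). The Caf40 knockdown libraries stood higher still, at 22.4 and 21.5 RPKM. The 5 rises of this list became 1 or 2 without any of the 4 compared libraries, and the 11 falls became 4, 4, 5 and 3 when Zeus knockdown replicate 1, replicate 2, wildtype replicate 1 or replicate 2 was left out. They were 17 and 18 without Caf40 knockdown replicate 1 or 2, 28 with library totals, and 29 and 30 by limma with a pseudocount of 1 and 0.1.

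SA1, RanGAP and CG30100 too fell in the Zeus knockdown and stood far higher in the Caf40 knockdown, and CG33307 and Obp58c had intermediate Caf40 values. SA1, which encodes a stromalin subunit of the cohesin ring that holds sister chromatids together, fell from 12.1 and 11.7 RPKM in wildtype to 1.58 and 1.42 RPKM (log2 fold change -2.86 ± 0.11, adjusted p = 1.38e-10). It stood at 19.9 and 17.9 RPKM in the Caf40 knockdown, a difference of -3.33 between the knockdowns (adjusted p = 5.31e-12). SA2, another stromalin gene, rose from 11.2 and 10.6 RPKM to 18.2 and 17.6 RPKM (log2 fold change 0.87, adjusted p = 2.93e-06), so the stromalin genes moved in opposite directions. SA1 and SA2 were chosen after their values were seen. RanGAP, the activator of the nuclear transport GTPase Ran and the gene whose truncated duplicate acts in the Segregation Distorter system of fly testes, fell from 52.9 and 55.9 RPKM to 21.1 and 21.0 RPKM (log2 fold change -1.22 ± 0.09, adjusted p = 1.16e-07). Its Caf40 knockdown values were 57.6 and 57.7 RPKM (difference -1.12, adjusted p = 1.98e-08). CG30100 fell from 36.4 and 40.4 RPKM to 2.59 and 3.97 RPKM, with 32.4 and 27.3 RPKM in the Caf40 knockdown (log2 fold change -3.33 over wildtype, adjusted p = 1.38e-09, and -2.77 over the Caf40 knockdown, adjusted p = 1.04e-09). CG33307 fell from 29.4 and 28.2 RPKM to 0.936 and 1.69 RPKM, with Caf40 knockdown values of 13.5 and 17.5 RPKM (log2 fold change -4.20 over wildtype, adjusted p = 6.2e-09, and -3.14 over the Caf40 knockdown, adjusted p = 2.75e-08). Obp58c, an odorant-binding protein gene, fell from 9.76 and 9.18 RPKM to 0.516 and 0.517 RPKM, with 5.82 and 7.32 RPKM in the Caf40 knockdown (log2 fold change -4.02 over wildtype, adjusted p = 3.23e-07, and -3.33 over the Caf40 knockdown, adjusted p = 4.33e-07). Of the 595 genes that changed at least 2-fold, 161 overlap another listed gene, and their reads may include those of the partner, because the sources used here do not give the strand of the counting. Among the genes named here this holds for SA1, RanGAP, CG30100, CG33307, hiw, RabX2, tbrd-3, CG4686, Prosalpha1R, MED17, w, Cyp6g1, Mccc1, Not3 and Cnot4.

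Other large falls were at least as deep in the Caf40 knockdown, which was compared with the same wildtype libraries. Cf2, a zinc finger transcription factor, fell from 50.5 and 66.1 RPKM in wildtype to 8.12 and 7.44 RPKM in the Zeus knockdown, beside 6.34 and 5.46 RPKM in the Caf40 knockdown (log2 fold change over wildtype -2.76 ± 0.13, adjusted p = 6.73e-10). The Caf40 knockdown was the lower of the knockdowns, by 0.73 on the log2 scale (adjusted p = 0.000109). CG3610 went from 149.9 and 151 RPKM to 64.4 and 63.7 RPKM in the Zeus knockdown and read 27.7 and 40.2 RPKM in the Caf40 knockdown (log2 fold change over wildtype -1.08, adjusted p = 3.27e-05). TyrR, a tyramine receptor, fell from 11.8 and 14.8 RPKM to 1.11 and 0.836 RPKM, and the Caf40 knockdown libraries held 0.0681 and 0.17 RPKM (log2 fold change over wildtype -3.67, adjusted p = 2.41e-09). The gene hiw, which encodes a ubiquitin ligase of synapse growth and was chosen after its values were seen, fell from 11.0 and 10.4 RPKM to 1.24 and 1.22 RPKM, with 1.01 and 0.846 RPKM in the Caf40 knockdown (log2 fold change over wildtype -2.98, adjusted p = 1.63e-11). For CG3610, TyrR and hiw too the Zeus knockdown lay above the Caf40 knockdown, by 1.24, 3.18 and 0.75 on the log2 scale (adjusted p = 9.13e-07, 4.62e-06 and 1.53e-05).

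Some genes of the wildtype libraries had almost no reads in the knockdown. RabX2, a Rab family GTPase, had no read in either Zeus knockdown library and 301 and 259 reads in wildtype, at least 137-fold lower when 3 reads over the group are taken as the floor. Gr93d, a gustatory receptor gene, had no read against 307 and 238, at least 133-fold lower. The Caf40 knockdown libraries held 0.129 and 0.0923 RPKM of RabX2 and 0.861 and 1.37 RPKM of Gr93d, below the wildtype values of 20.4 and 18.9 RPKM and of 10.7 and 8.93 RPKM. Ca-alpha1D, a subunit of voltage-gated calcium channels, fell from 7.77 and 8.65 RPKM to 0.312 and 0.282 RPKM, with 2.09 and 1.65 RPKM in the Caf40 knockdown (log2 fold change over wildtype -4.65 ± 0.14, adjusted p = 7.36e-12). Its reads across exon junctions numbered 1 and 4 in the Zeus knockdown against 108 and 125 in wildtype. A pair of prolyl 4-hydroxylase genes was nearly silent in both knockdowns. PH4alphaNE1 fell from wildtype levels of 21.9 and 19.4 RPKM to 0.379 and 0.38 RPKM, with 0.0465 and 0.0664 RPKM in the Caf40 knockdown (log2 fold change over wildtype -5.60, adjusted p = 2.12e-11). Mur18B, a mucin-related gene, shows where 1 library decides a value, since it read 0.173 RPKM in wildtype replicate 1 and 18.7 RPKM in wildtype replicate 2, and its fall was not called without the latter (adjusted p = 0.176).

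**Figure D3:**
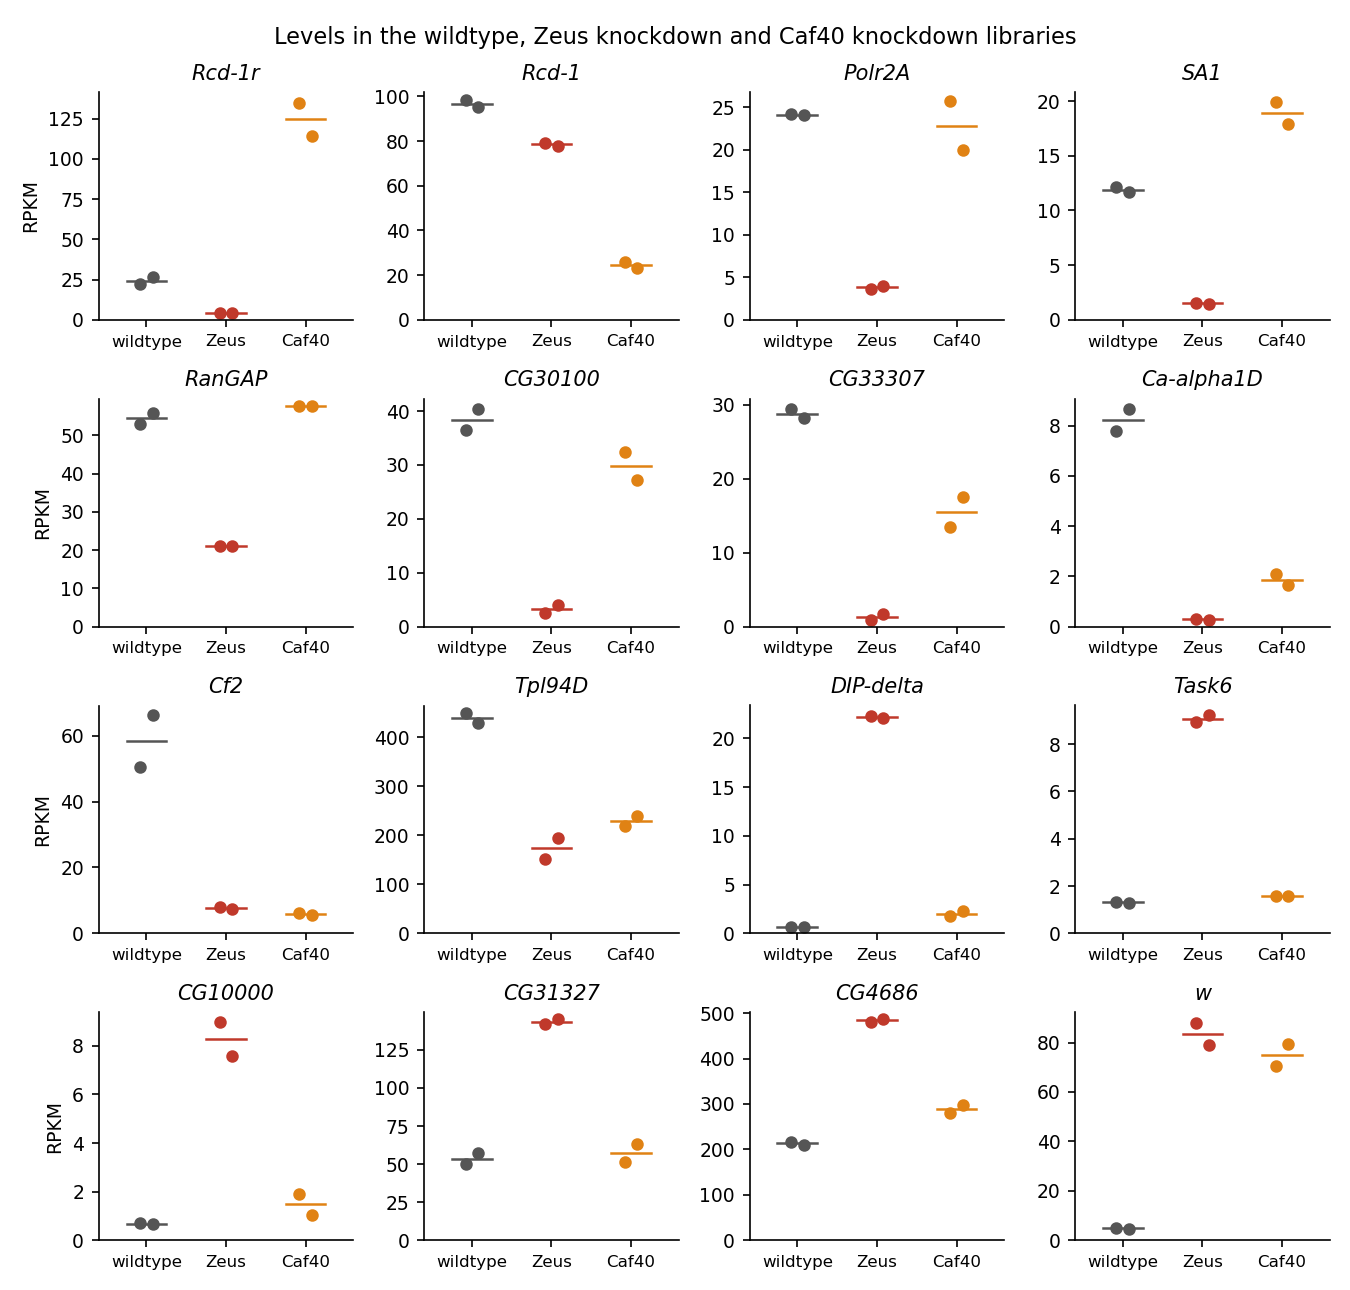
RPKM of 16 genes in each library (points) with the mean of each pair (lines), for wildtype (grey), Zeus knockdown (red) and Caf40 knockdown (orange), each panel starting at 0. Polr2A, SA1, RanGAP and CG30100 are low in the red points while their orange points lie far above the red ones, Cf2 and Ca-alpha1D are low in both knockdowns, and DIP-delta, Task6, CG10000 and CG31327 have red points far above the grey and orange ones.

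Among spermatid and sperm genes the main fall was in Tpl94D, a transition protein of the spermatid nucleus that acts while histones are replaced by protamines. Tpl94D fell from 450 and 429.7 RPKM in wildtype to 152 and 195 RPKM in the Zeus knockdown, with 219 and 239 RPKM in the Caf40 knockdown (log2 fold change over wildtype -1.19 ± 0.12, adjusted p = 3.3e-06). The groups were far apart, and Tpl94D was the 1 member of the 34 that fell, while 16 rose and none rose at least 2-fold. The list had a median log2 fold change of 0.31 and 47.1% of it rose, near the median of 0.31 and the 52.9% among all genes of at least 500 RPKM, at a median level of 689 RPKM for the list. Its count of rises was 5 or 6 without any of the 4 compared libraries, 6 and 7 by limma with a pseudocount of 1 and 0.1, and 30 without either Caf40 library. Among the 16, Mst84Db, which encodes a protein of the sperm tail, went from 2188 and 2303 RPKM to 3122 and 3223 RPKM (log2 fold change 0.65, adjusted p = 0.000505). The testis bromodomain gene tbrd-3 fell from 49.0 and 44.1 RPKM to 15.4 and 14.5 RPKM, beside 17.6 and 19.4 RPKM in the Caf40 knockdown (log2 fold change over wildtype -1.50, adjusted p = 1.51e-07). Of 19 spermatocyte genes, 6 fell (31.6%, against 20.5% of all tested genes) and none rose, with the largest fall in can, a testis-specific TAF, from 21.7 and 23.0 RPKM to 10.7 and 9.97 RPKM (log2 fold change -0.97, adjusted p = 9.98e-07). That count was 4 or 5 without any of the 4 libraries, 10 without either Caf40 library, 15 with library totals and 14 by limma. Germline stem cell and spermatogonial genes moved beside them, with 5 of 7 tested falling, none rising and a median log2 fold change of -0.49. The 71.4% that fell stands beside 20.5% of all tested genes and 29.9% of all genes at 5 to 10 RPKM. The median level of the list, 9.52 RPKM, lies in that band. The summed level of the 9 listed was 64.9 and 65.4 RPKM in the Zeus knockdown libraries and 99.2 and 102 RPKM in the wildtype ones, and the falls were 3 without Zeus knockdown replicate 2 or wildtype replicate 2. Their part in the other results was not tested.

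Several genes were higher in the Zeus knockdown than in both wildtype and the Caf40 knockdown. DIP-delta, an immunoglobulin-domain partner of the Dpr proteins known from synapse formation, was at 22.3 and 22.1 RPKM in the Zeus knockdown and at 0.661 and 0.615 RPKM in wildtype (log2 fold change 5.26 ± 0.16, adjusted p = 7.95e-12). The Caf40 knockdown held 1.78 and 2.30 RPKM, a difference of 3.75 between the knockdowns (adjusted p = 1.61e-11). Its junction reads were 82 and 121 in the Zeus knockdown against 8 and 4 in wildtype. Task6, a potassium leak channel, rose from 1.33 and 1.29 RPKM to 8.92 and 9.23 RPKM, with 1.58 and 1.59 RPKM in the Caf40 knockdown (log2 fold change 2.93 over wildtype, adjusted p = 3.61e-08, and 2.85 over the Caf40 knockdown, adjusted p = 5.22e-09). CG10000 rose from 0.693 and 0.664 RPKM to 8.97 and 7.58 RPKM, with 1.89 and 1.05 RPKM in the Caf40 knockdown (log2 fold change 3.74 over wildtype, adjusted p = 4.94e-09, and 2.86 over the Caf40 knockdown, adjusted p = 3.55e-09). Gr59a, a gustatory receptor gene, rose from 0.0361 and 0.039 RPKM to 2.87 and 3.05 RPKM, with 0.0687 and 0 RPKM in the Caf40 knockdown (log2 fold change 6.25 over wildtype, adjusted p = 4.99e-07, and 6.73 over the Caf40 knockdown, adjusted p = 6.74e-08). In these 4 genes both Zeus knockdown libraries lay above all 4 others.

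Some rises were large in RPKM and of testis-abundant genes, and others were of genes at lower levels. CG4686 rose from 217 and 210.1 RPKM to 481 and 488 RPKM, with 281 and 298 RPKM in the Caf40 knockdown (log2 fold change over wildtype 1.33 ± 0.10, adjusted p = 1.16e-07). CG31327 rose from 50 and 57.2 RPKM to 142 and 145 RPKM, while the Caf40 knockdown held 51.5 and 63.2 RPKM (log2 fold change over wildtype 1.57, adjusted p = 1.33e-07). Adgf-E, of the adenosine deaminase-related growth factors, rose from 115 and 115 RPKM to 218 and 223 RPKM (log2 fold change over wildtype 1.09, adjusted p = 5.11e-06). The Caf40 knockdown read 183 and 225 RPKM, so that in printed RPKM its replicate 2 reached the Zeus knockdown values and its replicate 1 did not. Prosalpha1R, a testis variant of a proteasome core subunit, rose from 11.4 and 9.8 RPKM to 26.6 and 27.3 RPKM (log2 fold change over wildtype 1.49, adjusted p = 1.33e-07), the 1 of 41 proteasome subunit genes that changed at least 2-fold. The Caf40 knockdown held 29.7 and 28.7 RPKM of Prosalpha1R. The BMP ligand dpp, which somatic cells of the testis tip send to germline stem cells, rose from 2.18 and 2.46 RPKM to 4.64 and 4.73 RPKM, with 2.89 and 2.33 RPKM in the Caf40 knockdown (log2 fold change over wildtype 1.16, adjusted p = 2e-06). In the same list of signalling genes, 7 of 20 tested fell (35%, against 29.9% of all genes at 5 to 10 RPKM, where their median level of 5.38 RPKM lies) and dpp was the 1 that rose. Those that fell included spi, an EGF ligand, from 19.5 and 21.3 RPKM to 10.2 and 9.98 RPKM (log2 fold change -0.87, adjusted p = 9.76e-06), and ci, the Hedgehog pathway's transcription factor, from 1.93 and 1.79 RPKM to 0.904 and 0.91 RPKM (log2 fold change -0.89, adjusted p = 0.000575). The 7 falls became 4 without Zeus knockdown replicate 2 or wildtype replicate 2.

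Other rises were seen in the Caf40 knockdown libraries too, against the same wildtype libraries. The eye pigment transporter gene w, which is also the usual marker gene of fly transgenes, rose from 4.91 and 4.55 RPKM to 88.1 and 79.1 RPKM, with 70.7 and 79.6 RPKM in the Caf40 knockdown (log2 fold change over wildtype 4.29 ± 0.12, adjusted p = 7.36e-12). The labels do not give the marker of the constructs, and the part of such a marker in this value was not tested. The phenylalanine hydroxylase gene Hn rose from 0.0886 and 0.0478 RPKM to 12.6 and 6.95 RPKM, with 3.04 and 3.89 RPKM in the Caf40 knockdown (log2 fold change over wildtype 7.19, adjusted p = 8.96e-09). The Zeus knockdown libraries of Hn differed from each other more than those of w, but both lay above all wildtype and Caf40 values.

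Changed genes sometimes lay side by side. Of 530 genes with a place on the annotation that changed at least 2-fold, 442 had no neighbour changed in the same direction, 34 pairs of neighbours did, and there were 4 runs of 3 genes and 2 runs of 4. On arm X, the run was Sdic2, Sdic3, Sdic4 and sw, which encode the sperm and the cytoplasmic dynein intermediate chain. The gene sw rose from 47.8 and 46.0 RPKM to 85.2 and 84.6 RPKM, with 43.4 and 44.9 RPKM in the Caf40 knockdown (log2 fold change over wildtype 1.01, adjusted p = 1.34e-06). Sdic2 rose from 7.84 and 8.03 RPKM to 17.2 and 17.8 RPKM (log2 fold change 1.29, adjusted p = 1.33e-07). The Sdic copies are nearly identical to each other and derive partly from sw, so reads may be split among them and the 4 values are not independent. In the mitochondrial genome, mt:CoI, mt:CoII, mt:ATPase6 and mt:CoIII rose, with mt:CoI at 11.8 and 13.1 RPKM against 0.493 and 0.812 RPKM in wildtype and 18.2 and 19.4 RPKM in the Caf40 knockdown (log2 fold change over wildtype 4.41, adjusted p = 3.65e-10). All 4 had a wildtype mean under 1 RPKM. They entered only through their Zeus knockdown level and had to be higher there, so this run supports nothing about the mitochondrial genome. On arm 3R, CG17477 had 54 and 121 reads in the Zeus knockdown and none in wildtype, at least 79.5-fold higher, and its neighbours CG31269 and CG4053 rose with it. All members of this run also had a wildtype mean under 1 RPKM and had to be higher in the Zeus knockdown to enter. CG31269 had 96 and 194 reads against 1 and 0, a ratio of 395 with a 95% interval of 70.4 to 15700 (exact binomial, counting error only). Another run on arm 3R fell and comprised Mccc1, a subunit gene of a leucine-degrading carboxylase, Acf, a chromatin remodelling subunit gene, and Ir100a. Acf fell from 17.9 and 15.8 RPKM to 5.02 and 4.88 RPKM, with 26.0 and 21.9 RPKM in the Caf40 knockdown (log2 fold change -1.62 over wildtype, adjusted p = 2.32e-08, and -1.94 over the Caf40 knockdown, adjusted p = 2.76e-10). Mccc1 fell from 15.5 and 14.6 RPKM to 5.99 and 6.2 RPKM, with 21.9 and 19.3 RPKM in the Caf40 knockdown (log2 fold change -1.16 over wildtype, adjusted p = 5.4e-07, and -1.41 over the Caf40 knockdown, adjusted p = 4.16e-09). Both genes thus stood low in the Zeus knockdown libraries alone. The other run that fell held mthl4, mthl3 and CG10764 on arm 2R, and the run that rose there, Acp53C14a, Acp53C14b and Acp53Ea, is described with the accessory gland genes.

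By chromosome arm, the X held the smallest share of rises of at least 2-fold among the large arms, but not of all rises. At the adjusted threshold alone, 18.5% of X genes rose, as on 3R, against 15% on 3L, 17.2% on 2L and 19.4% on 2R. Of 1406 tested X genes, 1.71% rose and 2.92% fell at least 2-fold, against 3.48% and 2.76% of 1810 genes on 2R and 3.28% and 3.51% of 2166 genes on 3R. On 2L and 3L, 2.50% and 2.32% rose and 3.81% and 3.21% fell. Chromosome 4 had 53 tested genes, of which none changed at least 2-fold, against 5.93% of all tested genes. On it 14 fell and 2 rose (26.4% and 3.77%, against 20.5% and 17.5% of all tested genes). The median log2 fold change was -0.21, against -0.04 over all genes. With so few genes, the absence of changes of at least 2-fold supports nothing about the chromosome. No test of the difference between arms was made.

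**Figure D4:**
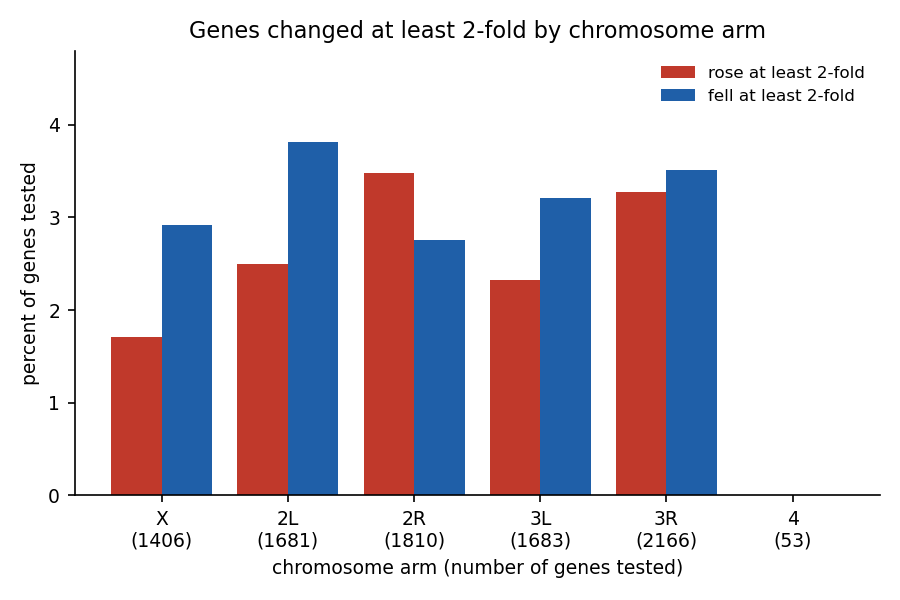
Percent of tested genes on each chromosome arm that rose (red) or fell (blue) at least 2-fold in the Zeus knockdown, with the number tested in brackets. The X stands at 1.71% for rises of at least 2-fold, the arms of chromosome 3 and 2 lie between 2.32% and 3.81%, and chromosome 4 has no such gene.

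Among detoxification enzymes, more of the tested P450 genes fell than rose, and more of the tested glutathione transferase genes rose than fell. The cytochrome P450 list was matched by name and also holds Cyp1 and Cyp40, cyclophilin genes that are counted among the falls below 2-fold. Of its 86 genes 47 were tested, 9 rose and 18 fell (19.1% and 38.3%, against 17.5% and 20.5% of all tested genes). The median level of the list, 3.24 RPKM, lies in the band of 2 to 5 RPKM, where 26.1% of all genes fell. Its median log2 fold change was -0.09, near the -0.04 over all genes. At least 2-fold were 2 of the rises and 10 of the falls. Of the 10, 6 had a mean under 1 RPKM in the Zeus knockdown and entered only through their wildtype level, so they had to fall. Without Zeus knockdown replicate 2 these counts were 4 rises and 11 falls, and without wildtype replicate 1, wildtype replicate 2 or Zeus knockdown replicate 1 they were 5 to 7 rises and 13 or 14 falls. Cyp6g1, known for its role in insecticide resistance, fell from 16.3 and 28.4 RPKM in wildtype to 1.16 and 0.215 RPKM, with 0.956 and 1.42 RPKM in the Caf40 knockdown (log2 fold change over wildtype -5.13 ± 0.38, adjusted p = 9.91e-08). Cyp4d1 fell from 16.5 and 17.3 RPKM to 0.381 and 0.696 RPKM, with 0.068 and 0.316 RPKM in the Caf40 knockdown (log2 fold change over wildtype -4.72, adjusted p = 6.73e-10). Cyp305a1, the most abundant of the 3 P450 genes named here, went the other way, from 28.1 and 28.2 RPKM to 41.0 and 40.0 RPKM (log2 fold change 0.67, adjusted p = 6.93e-05). Among 28 tested glutathione transferases, which conjugate toxic compounds, 10 rose and 1 fell (35.7% and 3.57%, against 17.5% and 20.5% of all tested genes). The 39.3% that changed is near the 38.0% of all tested genes. Their median level of 8.32 RPKM lies in the band of 5 to 10 RPKM, where 9.7% of all genes rose and 29.9% fell. GstD9 rose from 78.0 and 76.7 RPKM to 116 and 124 RPKM (log2 fold change 0.78, adjusted p = 0.000304), and GstE2 fell from 12.0 and 15.1 RPKM to 4.08 and 4.87 RPKM (log2 fold change -1.43, adjusted p = 3.6e-05). The 10 rises became 6, 4, 6 and 6 when Zeus knockdown replicate 1, replicate 2, wildtype replicate 1 or replicate 2 was left out, and 5 with library totals as the scaling.

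Chemoreceptor genes, which encode gustatory, odorant and ionotropic receptors, were mostly too low to test. Of 169 listed, 35 were tested, and of these 8 rose and 8 fell at least 2-fold. A member near the limit of 1 RPKM enters through the group where it is high, so the share of changed members among the tested ones supports nothing about the family. The largest changes in either direction were those of Gr93d and Gr59a, given above. Or22b, an olfactory receptor gene, fell from 3.69 and 2.63 RPKM to 0.178 and 0.17 RPKM, with 0.0581 and 0 RPKM in the Caf40 knockdown (log2 fold change over wildtype -4.02, adjusted p = 5.22e-06). Ir68b, an ionotropic receptor gene, fell from 9.54 and 11.2 RPKM to 1.5 and 1.74 RPKM, with 0.636 and 0.483 RPKM in the Caf40 knockdown (log2 fold change over wildtype -2.51, adjusted p = 3.33e-08). The 8 rises of at least 2-fold were 4 without wildtype replicate 2. Among 26 tested cuticle and chitin protein genes, 6 had a mean under 1 RPKM in 1 of the groups and entered only through the other. They gave 2 of the rises and 3 of the falls of at least 2-fold, so the counts support nothing about the family. This list changed in both directions too, with 6 of 26 members rising and 5 falling at least 2-fold (23.1% and 19.2%, against 2.76% and 3.17% of all tested genes). The falls were 3 without any of the 4 compared libraries.

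In the lists of nuclear energy metabolism genes no tested member changed at least 2-fold, which is near the share among all genes of like level. Of all genes at 50 to 100 RPKM, 0.748% rose and 0.107% fell at least 2-fold. At 100 to 500 RPKM, 0.558% rose and 0.159% fell at least 2-fold. Of 17 glycolysis genes 8 rose and 1 fell, with a median log2 fold change of 0.26, at a median level of 89.3 RPKM in the band of 50 to 100 RPKM, where 24.8% of all genes rose. Pgi, which converts glucose 6-phosphate to fructose 6-phosphate, rose from 145 and 147 RPKM to 216 and 222 RPKM (log2 fold change 0.74, adjusted p = 4.75e-05). Hex-t2, a testis hexokinase, rose from 429 and 405 RPKM to 490.4 and 501 RPKM (log2 fold change 0.40, adjusted p = 0.0107), a call lost without any of the 4 compared libraries. The member that fell was Gapdh1, from 26.6 and 28.5 RPKM to 17.1 and 16.7 RPKM, while the Caf40 knockdown held 66.2 and 59.8 RPKM (log2 fold change over wildtype -0.56, adjusted p = 0.000333). Of 18 tricarboxylic acid cycle genes 7 rose (38.9%, against 35.3% of all genes at 100 to 500 RPKM) and 2 fell. Fum3, a fumarase, rose from 264 and 279 RPKM to 326 and 341 RPKM (log2 fold change 0.44, adjusted p = 0.00515). Both counts of rises rested on all 4 libraries, since leaving out any of them left 1 or 2 glycolysis rises and 0 or 1 cycle rises, and without either Caf40 library they were 11 and 9. With library totals 5 glycolysis genes rose and 3 fell, and 4 cycle genes rose and 4 fell, so the excess of cycle rises depended on scaling. Of 78 nuclear oxidative phosphorylation genes 14 rose and 5 fell (17.9% and 6.41%). Their median level of 76.7 RPKM lies in the band of 50 to 100 RPKM, where 24.8% of all genes rose and 6.73% fell. With library totals 3 rose and 19 fell, so the direction of this list was not fixed. Its rises were 3 to 5 without any of the 4 compared libraries and 25 without either Caf40 library.

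Genes of protein synthesis fell in part. Of 81 cytoplasmic ribosomal protein genes 37 fell and none rose, at a median level of 123 RPKM, where 4.54% of all genes at 100 to 500 RPKM fell. That count was 6, 4, 29 and 2 without Zeus knockdown replicate 1, replicate 2, wildtype replicate 1 or replicate 2, 59 without either Caf40 library, 65 with library totals and 17 with libraries at the same median RPKM. Of 68 mitochondrial ribosomal protein genes 20 fell (29.4%) and 2 rose, near the 27.4% that fell among all genes at 10 to 20 RPKM, where their median level of 15 RPKM lies. The list had a median log2 fold change of -0.20, and mRpS35 was the 1 that fell at least 2-fold, from 19.2 and 19.5 RPKM to 8.55 and 6.52 RPKM (log2 fold change -1.24, adjusted p = 5.94e-06). In the Caf40 knockdown mRpS35 stood at 25.7 and 27.3 RPKM. Of 30 tested aminoacyl-tRNA synthetase genes 11 fell (36.7%) and 2 rose, at a median level of 10.7 RPKM in that same band. IleRS, which charges isoleucine tRNA, fell from 13.4 and 14.8 RPKM to 8.39 and 8.63 RPKM (log2 fold change -0.58, adjusted p = 0.000412). The falls of the mitochondrial and synthetase lists were 6 to 10 and 2 to 6 without any of the 4 compared libraries. With libraries at the same median RPKM they were 11 and 5, and with library totals 33 and 19. Of 7 CCR4-NOT subunit genes other than the copies, Not11 and Cnot4 rose and Not3 fell, the last from 22.5 and 23.5 RPKM to 14.6 and 14.5 RPKM (log2 fold change -0.51, adjusted p = 0.000735). Not11 rose from 11.2 and 11.2 RPKM to 16.7 and 14.2 RPKM (log2 fold change 0.59, adjusted p = 0.00234). The call on Cnot4 was lost when any of the 4 compared libraries was left out. Not3 read 54.4 and 47.2 RPKM and Not11 23.0 and 20.2 RPKM in the Caf40 knockdown.

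Genes known from cells outside the germline were mostly at low levels. Of 22 listed genes of the accessory gland, ejaculatory duct and bulb, 12 were tested, 8 rose (6 at least 2-fold) and 1 fell, and the rises were 5 without Zeus knockdown replicate 1 or wildtype replicate 2. Of the 12, 7 had a mean under 1 RPKM in 1 of the groups, and 6 of the 8 rises and 5 of the 6 of at least 2-fold were among them. These entered only through their Zeus knockdown level and had to be higher there, so the count supports nothing about the list. The transcription factor gene prd, which acts in accessory gland development, rose from 2.31 and 2.28 RPKM to 7.77 and 8.83 RPKM, with 9.11 and 9.90 RPKM in the Caf40 knockdown (log2 fold change over wildtype 2.01, adjusted p = 2.07e-08). The most abundant member, Acp95EF, was at 58.4 and 55.6 RPKM in the Zeus knockdown and 58.0 and 58.8 RPKM in wildtype. The neighbouring seminal protein genes Acp53C14a, Acp53C14b and Acp53Ea rose from very few reads, Acp53Ea from 2 and 4 reads to 12 and 20 reads, and the call on Acp53C14a was lost without Zeus knockdown replicate 1 or wildtype replicate 2. The summed level of the 22 genes was 97.9 and 88.2 RPKM in the Zeus knockdown and 78.4 and 77.6 RPKM in wildtype, and 10 of them lay below 1 RPKM. Hemocyte genes went the other way, with 6 of 8 tested members falling and none rising. The 75% that fell stands beside 26.1% of all genes at 2 to 5 RPKM, where the median level of the list, 2.44 RPKM, lies. Of these falls, 1 was of a member under 1 RPKM in the Zeus knockdown, which entered only through its wildtype level and had to be lower. The 10 listed genes had a summed level of 32.8 and 29.4 RPKM against 54.4 and 41.8 RPKM in wildtype. Col4a1, a collagen IV chain of basement membranes, fell from 4.69 and 2.36 RPKM to 1.10 and 1.32 RPKM, with 6.0 and 3.93 RPKM in the Caf40 knockdown (log2 fold change over wildtype -1.38, adjusted p = 0.00121). The wildtype libraries differed from each other in this list, and 1 gene fell without wildtype replicate 1 and 2 without Zeus knockdown replicate 2. Of 16 hub and cyst cell genes 2 rose and 4 fell (25%, near the 20.5% of all tested genes), with a summed level of 101 and 99.3 RPKM against 114 and 120.4 RPKM, and the falls were 2 without any of the 4 compared libraries and 7 without either Caf40 library or with library totals. The part of such other cells in any result above was not tested.

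**Figure D5:**
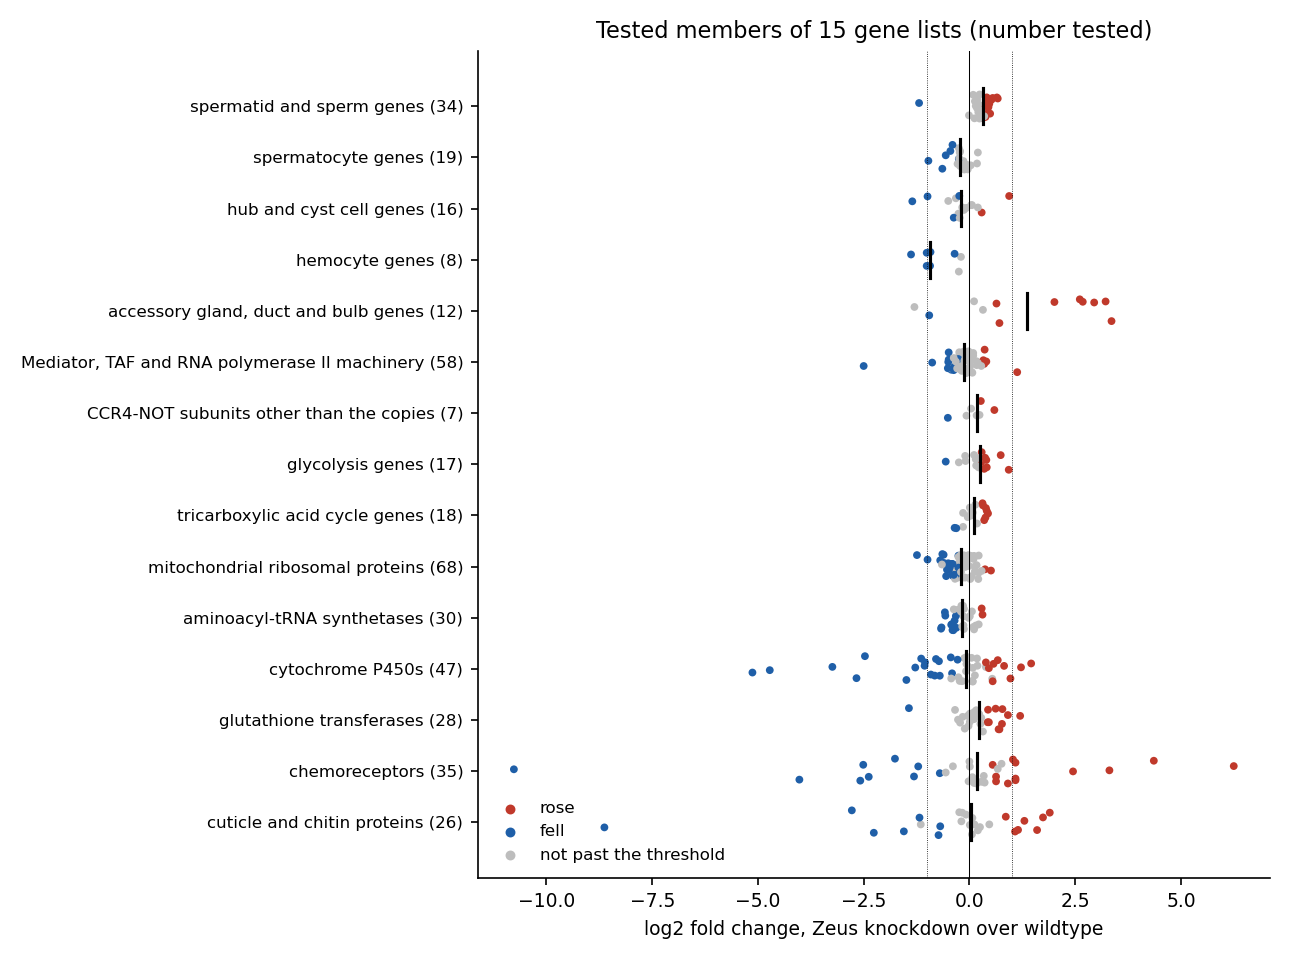
Log2 fold change of the Zeus knockdown over wildtype for each tested member of 15 gene lists, with the number tested in brackets, black bars at the list medians and dotted lines at a 2-fold change. Spermatid and glycolysis genes sit just right of 0 with medians of 0.31 and 0.26, hemocyte genes left of 0 with a median of -0.93, and P450s, chemoreceptors and cuticle genes spread widely in both directions.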

How the data were processed

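Testis messenger RNA was sequenced as single-end Illumina libraries, per the labels. The submitters' processing notes name Bowtie and the dm3 build. Each deposited file gives, per the file headers, the authors' counts of reads on each gene, reads across junctions and RPKM, with no normalization beyond gene length and mapped reads. Gene symbols, arms, neighbours and overlaps came from the BDGP6 annotation, which gave 12862 of 15178 genes a symbol, and no coordinate was carried over.

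The counts on genes (12662615 and 22100567 in the Zeus knockdown, 24429722 and 22582003 in wildtype, 12837755 and 18070275 in the Caf40 knockdown) were fitted with edgeR 4.0.16 (glmQLFit and glmQLFTest in R 4.3.3, TMM normalization) with 3 groups and 6 libraries, so that the Caf40 group contributed to the spread and gave the direct differences between knockdowns. Common biological variation was 0.0739 with 6 libraries and 0.0435 with the 4 compared. Genes needed a mean of 1 RPKM over the 4 compared libraries. P-values were adjusted over all 10040 genes by the Benjamini-Hochberg method, with a threshold of 0.05, and "at least 2-fold" means an absolute fitted log2 fold change of at least 1 besides. An exact permutation test of 2 against 2 libraries cannot go below p = 0.333, so none is given. RPKM in the text are the deposited values, without TMM factors (0.89 and 0.89 Zeus, 0.989 and 1.00 wildtype, 1.16 and 1.10 Caf40). Ratios of printed RPKM therefore put the Zeus knockdown lower than the fitted folds do, against wildtype and more so against the Caf40 knockdown. For small changes this matters. Without TMM factors the median log2 fold change of all genes moved by -0.16, and Rcd-1 stood at -0.31 in place of -0.15. DESeq2 1.42.0 and limma 3.58.1 (on log2 RPKM with a pseudocount of 1 or 0.1), other scalings, filters, each library left out, and a fit with replicate number as a block were alternatives. The fit was tested on simulated data. Counts of reads without molecular identifiers give intervals and floors for counting error only.

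The comparison and the 51 gene lists were chosen with earlier results of these data known. List sizes count the names matched to the files' genes. Named were Rcd-1r and Rcd-1. Among genes changed at least 2-fold whose libraries did not overlap between groups and whose mean reached 5 RPKM in one of them, the 25 largest rises and falls by fold and the 15 by RPKM difference were eligible. To these were added up to 4 changed members of each list by p, and runs of 3 or more changed neighbours. A sentence may name fewer. Genes said to be picked after their values were seen, and abundant members of marker lists, fall outside this rule. The D. simulans and D. yakuba libraries were not used here.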

Additional observations from a re-analysis of the deposited data

How the results depend on the processing

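Rises and falls of at least 2-fold kept their counts within 1.5 times under RLE factors, library totals, equal medians, DESeq2 and the 4 libraries alone. Library totals gave 195 rises and 445 falls of that size, and equal medians gave 341 and 260. Counts also stayed within 1.5 times with each library left out, when most of the 595 genes were shared. The 277 rises were 135 by limma with a pseudocount of 1, 424 with no filter on low values and 96 with a mean of at least 5 RPKM, and the 318 falls were 497 and 108 under these filters. All calls at the adjusted threshold moved more. The 1756 rises were 993 with library totals, 940 and 916 by limma with a pseudocount of 1 and 0.1, 2675 with the 4 libraries alone, 1162 in genes that overlap no other listed gene (an alternative added after seeing the data, with fewer genes tested), and 750 to 2663 with a library left out. The 2057 falls were 3546 with library totals, 1325 with equal medians, 3147 and 3199 by limma, and 912 to 2736 with a library left out. Rcd-1 passed the threshold with a log2 fold change of -0.31 with library totals (adjusted p = 0.00923), -0.29 and -0.30 by limma (adjusted p = 0.0158 and 0.0171), -0.15 with the 4 libraries alone (adjusted p = 0.0237) and -0.15 without either Caf40 library, and its value was between -0.17 and -0.12 with a library left out. Beyond the alternatives' own construction, the cause was not tested. Rcd-1r kept its call under every alternative run. Of 3995 comparisons of 255 named genes with an alternative, 3726 kept the call, 263 lost it, 6 gained it and none reversed. Labels number the replicates alike in each group, but the deviations of same-numbered libraries did not correlate (-0.05 between Zeus knockdown and wildtype), so the number gives no pairing. A fit with the replicate block gave 1713 rises and 1997 falls, 275 and 314 of them at least 2-fold. Depth limits genes under about 2 RPKM, and 2 libraries a group leave the spread poorly known.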
